A study of Mus musculus with 7 samples.

Results

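Megakaryocyte and platelet genes are those through which bone marrow makes platelets and platelets stop bleeding. The set described here holds 35 mouse genes, listed by symbol and matched to rows of a table of 28987 genes. All 35 had a row. They encode 2 chemokines, receptors for von Willebrand factor, fibrinogen, collagen and thrombin, signalling proteins, granule and secreted proteins, 2 coagulation factors, 2 cytoskeletal proteins, a tetraspanin and a transcription factor.

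Bone marrow of individual C57BL/6 mice gave 7 RNA sequencing libraries. Of these, 3 came from stem and progenitor cells of the blood (HSC/P), selected for CD117 (the receptor Kit) and then sorted as the mutant clone. They were 2 libraries of RUNX1mut/HMGA2-OE and 1 of HMGA2-OE, so every HSC/P library carried overexpression of HMGA2, and no HSC/P library without it was studied. The other 4 libraries were sorted Ly6G+ myeloid cells, 1 each of RUNX1mut/HMGA2-OE, RUNX1mut, HMGA2-OE and Control. The Control library is also labelled WT, for wild type. The sources used here do not give the RUNX1 allele, the promoter driving HMGA2, the age of the mice or whether any mouse gave both an HSC/P and a Ly6G+ library. Values are transcript abundances in TPM, which are divided by transcript length, so levels may be compared between genes. Read depth is unknown, so no counting error can be given. The 2 RUNX1mut/HMGA2-OE HSC/P libraries differ on these genes and are given one by one, replicate 1 first.

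Megakaryocytes are large bone marrow cells that arise from stem and progenitor cells and shed platelets into the blood. During their maturation the factors GATA1, FLI1 and RUNX1 act on the genes of the glycoprotein receptors and the alpha granules. RUNX1 is needed for their maturation, and inherited RUNX1 mutations in people cause a platelet disorder. Several of these genes, Itga2b and Vwf among them, are also read in stem cells that lean towards platelets. In RNA of a whole cell fraction, more cells of one type and more RNA per cell cannot be told apart.

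Kit was higher in every HSC/P library and Ly6g in every Ly6G+ library. In both genes HMGA2-OE HSC/P, the baseline of the HSC/P comparison, stood nearer to Ly6G+ cells than RUNX1mut/HMGA2-OE HSC/P did. Kit was at 155 and 134 TPM in RUNX1mut/HMGA2-OE HSC/P, against 61.8 TPM in HMGA2-OE HSC/P, and between 3.43 and 5.20 TPM in the Ly6G+ libraries. Ly6g was at 7.28, 16.8 and 136 TPM in the same HSC/P libraries, and between 270 and 441 TPM in Ly6G+ cells. Runx1 itself was at 219 and 225 TPM in RUNX1mut/HMGA2-OE HSC/P, against 18.9 TPM in HMGA2-OE HSC/P. In Ly6G+ cells it was at 21.2 and 11.6 TPM in RUNX1mut/HMGA2-OE and RUNX1mut, against 3.36 and 3.85 TPM in HMGA2-OE and Control. The files do not separate mutant from endogenous Runx1 transcripts.

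The start regions of 4 members, chosen with their values known, are printed because the results turn on them: Pf4 was the highest member in each HSC/P library, Itga2b and Treml1 had large differences between genotypes, and Gp9 a large one between the 2 replicates. Each sequence is the RefSeq window on GRCm38.p6 from 250 bases before to 50 bases after the gene's start. Capitals mark matches, on either strand, to 3 short motifs bound by factors of this lineage. The ETS motif, for factors such as FLI1, was searched as the word AGGAAG and the word CGGAAG. The GATA motif was searched as the word AGATAA and likewise the word TGATAA, with the word AGATAG and also the word TGATAG added. The RUNX motif was searched as the word TGNGGT. No letter was shared between matches of different motifs in these 4 windows. Pf4 lies at chr5:90772185-90772484 on the plus strand, Itga2b at chr11:102469834-102470133 on the minus strand, Gp9 at chr6:87777820-87778119 on the plus strand and Treml1 at chr17:48359666-48359965 on the plus strand.
Pf4: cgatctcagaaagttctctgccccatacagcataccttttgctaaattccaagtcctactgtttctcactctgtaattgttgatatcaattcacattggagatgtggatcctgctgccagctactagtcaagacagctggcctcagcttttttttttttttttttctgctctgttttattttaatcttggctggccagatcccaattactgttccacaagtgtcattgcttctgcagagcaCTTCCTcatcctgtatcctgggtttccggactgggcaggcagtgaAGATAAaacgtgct
Itga2b: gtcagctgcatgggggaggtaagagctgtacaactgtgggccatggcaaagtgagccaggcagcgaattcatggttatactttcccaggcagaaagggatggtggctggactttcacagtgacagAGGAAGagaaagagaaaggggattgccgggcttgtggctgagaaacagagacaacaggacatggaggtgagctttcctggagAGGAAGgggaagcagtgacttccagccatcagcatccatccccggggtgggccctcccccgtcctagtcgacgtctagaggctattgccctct
Gp9: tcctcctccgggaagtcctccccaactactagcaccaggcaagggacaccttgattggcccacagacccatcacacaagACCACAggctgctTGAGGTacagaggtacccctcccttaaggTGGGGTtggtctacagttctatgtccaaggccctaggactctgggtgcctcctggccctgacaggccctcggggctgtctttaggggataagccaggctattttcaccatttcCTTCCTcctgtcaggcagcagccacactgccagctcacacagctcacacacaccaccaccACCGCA
Treml1: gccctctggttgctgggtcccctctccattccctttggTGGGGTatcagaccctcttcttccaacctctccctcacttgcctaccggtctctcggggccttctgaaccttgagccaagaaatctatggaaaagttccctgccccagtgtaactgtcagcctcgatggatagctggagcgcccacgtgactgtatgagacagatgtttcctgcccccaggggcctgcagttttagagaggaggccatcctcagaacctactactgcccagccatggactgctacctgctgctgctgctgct
Pf4 held an ETS match 9 bases before the start and a GATA match 37 bases into the transcript. Itga2b held ETS matches 125 and 43 bases before its start, which in GENCODE M21 lies 239 bases further upstream. Gp9 held an ETS match 16 bases before the start and RUNX matches at 171, 158 and 129 bases before it and 45 bases after it. Treml1 held a RUNX match 212 bases before the start. RefSeq windows were found for 27 members, in 28 windows. An ETS motif was in 53.6% of these windows, against 46.5% of all 32851 windows. A GATA motif was in 32.1%, against 29.8% of all windows, and a RUNX motif in 42.9%, against 45.8%. ETS and GATA motifs stood together in 17.9% of member windows, against 12.6% of all windows. These are matches of letters, not binding sites, and binding was not measured here.

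Summed over the 35 genes, the level was 2029 and 4865 TPM in replicates 1 and 2 of RUNX1mut/HMGA2-OE HSC/P, against 884 TPM in HMGA2-OE HSC/P. Both RUNX1mut/HMGA2-OE libraries stood above the HMGA2-OE library, by 2.30 and 5.51 times, and the replicates differed from each other by 2.40 times. The sum was 1188, 657 and 630 TPM in RUNX1mut/HMGA2-OE, RUNX1mut and HMGA2-OE Ly6G+ cells and 653 TPM in Control. These sums are of TPM as deposited. The scale factors of the Ly6G+ libraries were 1.58, 1.02, 0.690 and 0.901 in the same order, so their sums are not on a common scale. At least 1 TPM as deposited was reached by 33, 34 and 32 of the 35 genes in the 3 HSC/P libraries. Of all 28987 genes, 12420, 12449 and 12012 reached it there. In Ly6G+ cells 28 and 26 of the 35 genes reached it in RUNX1mut/HMGA2-OE and RUNX1mut, against 15 in HMGA2-OE and 15 in Control. The counts over all genes also differed, with 10763 and 9670 in RUNX1mut/HMGA2-OE and RUNX1mut, against 8559 in HMGA2-OE and 9096 in Control.

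The sum was built from different genes in the 2 cell types. Cd9, Thbs1 and Plek together made 13.9%, 15.8% and 14.4% of it in the HSC/P libraries, and between 76.1% and 82.7% in the Ly6G+ libraries. Pf4 and Ppbp made 17.7% and 22.9% of it in RUNX1mut/HMGA2-OE HSC/P, against 40.9% in HMGA2-OE HSC/P, and at most 3.47% in a Ly6G+ library.

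**Figure D1:**
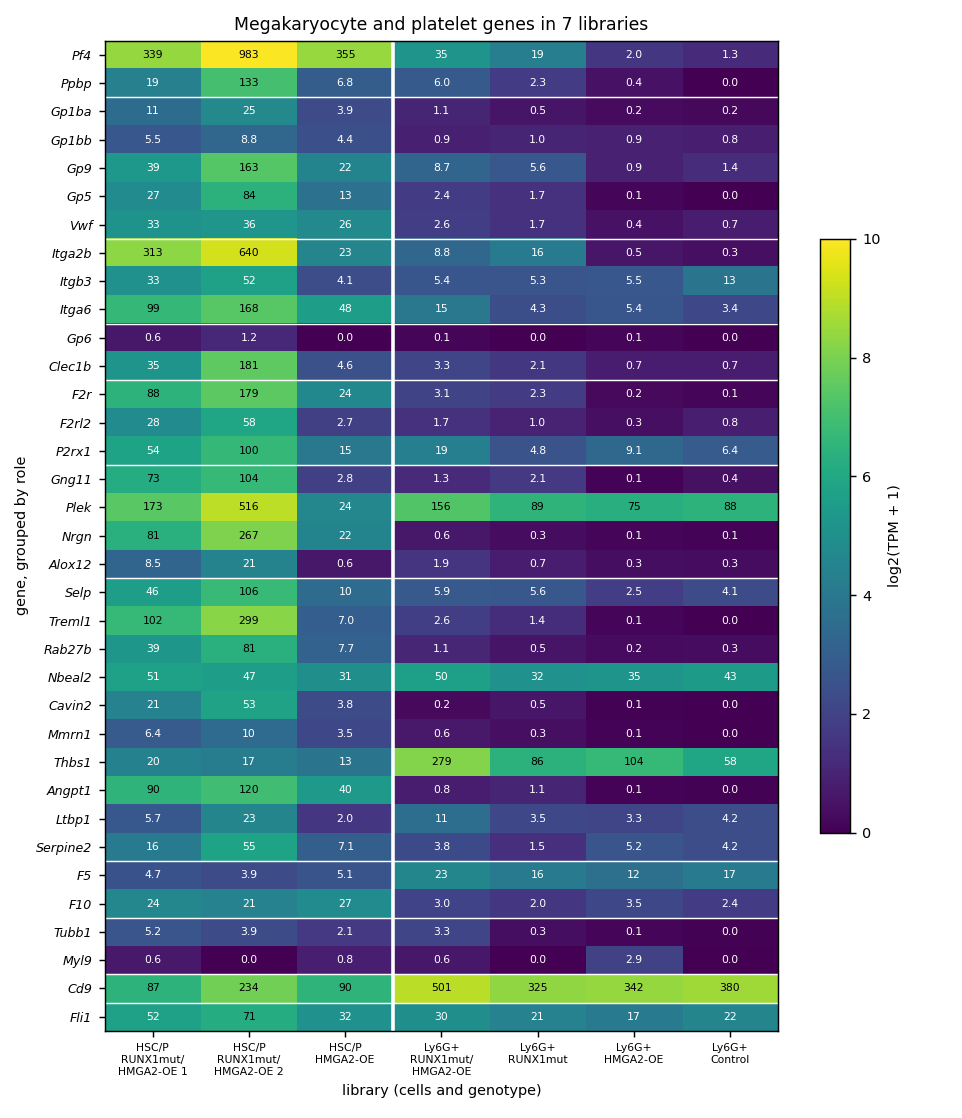
TPM of the 35 genes in each of the 7 libraries (columns, HSC/P left of the white line), with the rows grouped by role and the colour showing log2(TPM + 1). The number in each cell is the TPM as deposited. Pf4 was at 983 TPM in RUNX1mut/HMGA2-OE HSC/P replicate 2, and Cd9 was the highest member in every Ly6G+ library.

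The first comparison asked how the RUNX1 mutation changed these genes in progenitors that overexpress HMGA2. Receptor, signalling and granule genes were mostly higher in RUNX1mut/HMGA2-OE, with Gng11, Treml1 and Itga2b at the top, while Vwf, Thbs1, F5 and F10 lay close to HMGA2-OE or below it. No gene of the whole fit passed the test, which had 1 residual degree of freedom (limma, smallest adjusted p 0.112, 0.0% of 12226 genes called). At an unadjusted p under 0.05 stood 19 of the 33 members tested and 15.6% of all genes. Gp6 and Myl9 were not tested, as neither reached 1 TPM in 2 of the libraries.

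The fitted difference was above 0 for 31 of the 33 members, against 48.1% of all genes. It was beyond 1 on the log2 scale, higher in RUNX1mut/HMGA2-OE, for 22 members, against 6.06% of all genes. No member was beyond 1 in the other direction, against 3.57% of all genes. The median log2 difference was 1.77 over the members and -0.02 over all genes. Library by library, replicate 1 was at least 2-fold above HMGA2-OE for 18 members (5.68% of all genes) and replicate 2 for 25 (7.09% of all genes). Neither was at least 2-fold below it for any member, against 3.7% of all genes for replicate 1 and 4.72% for replicate 2. All 18 of the first count were also among the 25, and 4.09% of all genes were at least 2-fold higher in both replicates, while 2.31% were at least 2-fold lower in both. In 29 members both replicates were above HMGA2-OE, against 37.8% of all genes. The median log2 difference was 1.04 in replicate 1 and 2.61 in replicate 2. These values come from scaled TPM with 1 TPM added, which understates the differences of low genes.

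Of the chemokines stored in alpha granules, Pf4 (platelet factor 4, ENSMUSG00000029373, mm10 chromosome 5, 90772435 to 90773383, plus strand) was at 339 and 983 TPM in RUNX1mut/HMGA2-OE, against 355 TPM in HMGA2-OE. Replicate 1 thus lay slightly below HMGA2-OE and replicate 2 far above it. Ppbp, which lies 2.371 kb from Pf4 and encodes the precursor of another platelet chemokine, was at 19.3 and 133 TPM in RUNX1mut/HMGA2-OE, against 6.80 TPM in HMGA2-OE. Both replicates stood above HMGA2-OE, with a fitted log2 difference of 2.59 ± 1.22 (SE).

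The GPIb-IX-V complex is the platelet receptor for von Willebrand factor, and its 4 genes were not alike. Gp9 was at 38.8 and 163 TPM in RUNX1mut/HMGA2-OE, against 22.0 TPM in HMGA2-OE (log2 difference 1.65 ± 0.91). Gp5 was at 27.1 and 84.1 TPM, against 12.7 TPM (1.67 ± 0.72). Gp1ba, the subunit that binds the ligand, was at 10.7 and 25.3 TPM, against 3.90 TPM (1.69 ± 0.55). For these 3 genes both replicates were above HMGA2-OE. Gp1bb was at 5.50 and 8.83 TPM, against 4.40 TPM, and its exons overlap those of Sept5 and Gm49601 on the same strand, so reads may be shared. Vwf, which encodes the ligand, was at 32.9 and 35.8 TPM in RUNX1mut/HMGA2-OE, against 26.2 TPM in HMGA2-OE, a smaller difference than for the 3 receptor genes.

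The fibrinogen receptor of platelets is a pair of integrin chains encoded by Itga2b and Itgb3. Itga2b (ENSMUSG00000034664, mm10 chromosome 11, 102453297 to 102470122, minus strand) was at 313 and 640 TPM in RUNX1mut/HMGA2-OE, against 22.5 TPM in HMGA2-OE (log2 difference 4.09 ± 0.46). Itgb3 was at 32.5 and 52.1 TPM, against 4.10 TPM (2.90 ± 0.33). For both chains the ratio to HMGA2-OE was larger than the ratio between the replicates. Itga6, a chain of the laminin receptor that stem cells also carry, was at 99.3 and 168 TPM, against 48.1 TPM (1.24 ± 0.34).

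Clec1b, the receptor for podoplanin, was at 34.8 and 181 TPM in RUNX1mut/HMGA2-OE, against 4.63 TPM in HMGA2-OE (log2 difference 3.69 ± 1.05). Its exons overlap those of Clec9a on the same strand. Gp6, the collagen receptor, was at 0.554 and 1.16 TPM in RUNX1mut/HMGA2-OE and listed at 0 in HMGA2-OE, so this late platelet receptor was near the floor of the table. Among receptors for soluble agonists, F2r (protease-activated receptor of thrombin) was at 87.7 and 179 TPM, against 24.3 TPM (2.16 ± 0.46). Its neighbour F2rl2, a cofactor for thrombin on mouse platelets, was at 27.5 and 58.1 TPM, against 2.69 TPM (3.34 ± 0.49). P2rx1, an ATP-gated channel, was at 54.5 and 99.9 TPM, against 15 TPM (2.06 ± 0.39). For the 3 agonist receptors both replicates were above HMGA2-OE, by a larger ratio than the one between the replicates.

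Signalling genes held the largest fitted difference of the set. Gng11, a G protein gamma subunit (ENSMUSG00000032766, mm10 chromosome 6, 4003904 to 4008445, plus strand), was at 72.7 and 104 TPM in RUNX1mut/HMGA2-OE, against 2.75 TPM in HMGA2-OE (log2 difference 4.41 ± 0.26, adjusted p = 0.112). Its replicates were 1.43 times apart, close together for this set. Plek, the main protein kinase C substrate of platelets, was at 173 and 516 TPM, against 24.0 TPM (3.42 ± 0.70). Nrgn, which encodes the calmodulin-binding protein neurogranin, was at 80.8 and 267 TPM, against 21.6 TPM (2.55 ± 0.76). Alox12, the platelet lipoxygenase, was at 8.53 and 21.3 TPM, against 0.564 TPM (3.13 ± 0.58). In all 4 signalling genes both replicates were above HMGA2-OE.

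Genes of granules and of secretion were higher in most cases. Treml1, an alpha granule receptor that reaches the surface on activation (mm10 chromosome 17, 48359916 to 48367176, plus strand), was at 102 and 299 TPM in RUNX1mut/HMGA2-OE, against 7.03 TPM in HMGA2-OE (log2 difference 4.30 ± 0.69). Selp, the adhesion receptor P-selectin of the alpha granule membrane, was at 46.3 and 106 TPM, against 10.3 TPM (2.5 ± 0.53). Rab27b, a small GTPase of dense granule secretion, was at 38.6 and 81.3 TPM, against 7.73 TPM (2.55 ± 0.48). Cavin2, a caveola coat protein, was at 20.7 and 53.2 TPM, against 3.85 TPM (2.68 ± 0.60). In these 4 genes the lower replicate still stood well above HMGA2-OE. Nbeal2, which is needed to form alpha granules, was nearer to HMGA2-OE, with 51.4 and 47.5 TPM in RUNX1mut/HMGA2-OE and 30.9 TPM in HMGA2-OE.

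The secreted proteins split. Angpt1, a ligand of the receptor Tek, was at 90.0 and 120 TPM in RUNX1mut/HMGA2-OE, against 40.1 TPM in HMGA2-OE (log2 difference 1.19 ± 0.21). Serpine2, a thrombin inhibitor, was at 16 and 55.1 TPM, against 7.15 TPM (1.77 ± 0.78), and Ltbp1, which binds latent TGF-beta, at 5.68 and 22.5 TPM, against 2.02 TPM (1.92 ± 0.83). As ratios, replicate 1 lay nearer to HMGA2-OE than to replicate 2 for both of these genes. Mmrn1, the granule protein that binds factor V, was at 6.40 and 10.3 TPM, against 3.51 TPM. Thbs1 (thrombospondin) was at 20.2 and 17.2 TPM in RUNX1mut/HMGA2-OE and 13.3 TPM in HMGA2-OE.

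The 2 coagulation factors were the members below 0 in the fit. F5 was at 4.68 and 3.88 TPM in RUNX1mut/HMGA2-OE, against 5.06 TPM in HMGA2-OE, and F10 at 23.5 and 20.7 TPM, against 27.1 TPM. Of the cytoskeletal genes, Tubb1, the tubulin of the platelet rim, was at 5.19 and 3.95 TPM in RUNX1mut/HMGA2-OE, against 2.13 TPM in HMGA2-OE. Myl9, a myosin light chain, was below 1 TPM in all 3 HSC/P libraries. Both genes of platelet structure were low beside Itga2b in RUNX1mut/HMGA2-OE HSC/P. Cd9, a tetraspanin of many blood cells, was at 87.4 and 234 TPM in RUNX1mut/HMGA2-OE, against 89.9 TPM in HMGA2-OE. Fli1, the ETS factor, was at 52.5 and 71.4 TPM in RUNX1mut/HMGA2-OE, against 32.0 TPM in HMGA2-OE.

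**Figure D2:**
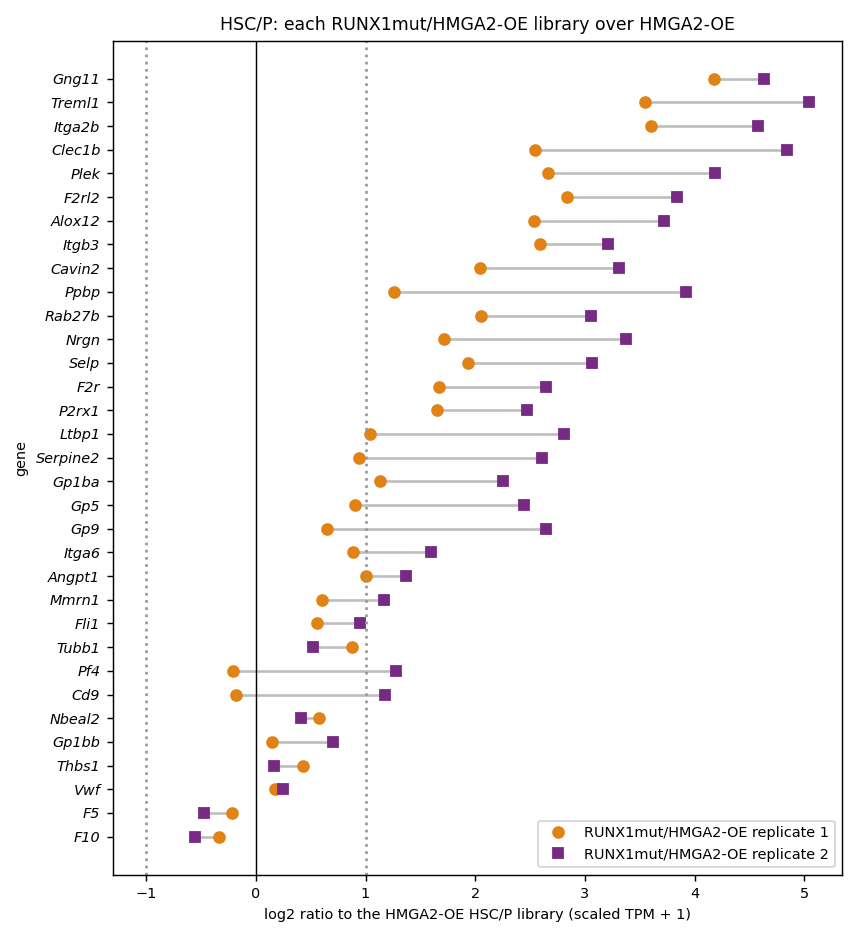
Log2 ratio of each RUNX1mut/HMGA2-OE HSC/P library to the HMGA2-OE HSC/P library (scaled TPM with 1 added, x axis) for the 33 members tested (y axis), with circles for replicate 1, squares for replicate 2 and dotted lines at 2-fold. In 29 members both symbols lie above 0, and for Pf4 and Cd9 they lie on opposite sides of it.

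Other genes of the platelet pathway, a second list of 39 genes in the table with no member in common, were less uniform. Of 35 tested, 26 were higher in RUNX1mut/HMGA2-OE, 14 of them beyond 1 and none lower beyond 1, with a median log2 difference of 0.50 against -0.02 for all genes. Pear1, a contact receptor of platelets, was at 60.3 and 83.1 TPM in RUNX1mut/HMGA2-OE, against 11.4 TPM in HMGA2-OE (2.37 ± 0.23). Lat, an adaptor of collagen receptor signalling, was at 45.9 and 108 TPM, against 7.03 TPM (3.0 ± 0.55), and Gucy1b1, a subunit of the nitric oxide receptor, at 13.4 and 19.1 TPM, against 0.856 TPM (3.09 ± 0.30). Trpc6, a calcium channel, was at 2.47 and 28.7 TPM and listed at 0 in HMGA2-OE, so its value rests mostly on replicate 2.

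Of 20 regulators of megakaryocyte formation, 14 were higher in RUNX1mut/HMGA2-OE, 6 of them beyond 1 and none lower beyond 1, with a median log2 difference of 0.17. Beside Runx1 itself, Meis1 and Erg were among those with the largest differences. Meis1, a homeobox factor, was at 67.2 and 93.2 TPM in RUNX1mut/HMGA2-OE, against 11.3 TPM in HMGA2-OE (2.55 ± 0.24). Erg, an ETS factor, was at 95.7 and 103 TPM, against 33.6 TPM (1.37 ± 0.13). Gata1, which acts in both megakaryocytes and red cells, was at 47.5 and 72.0 TPM in RUNX1mut/HMGA2-OE, against 89.7 TPM in HMGA2-OE, and was named after its values were seen.

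Markers of other cells differed between the same libraries. All 16 erythroid genes tested were lower in RUNX1mut/HMGA2-OE, with a median log2 difference of -1.09 and summed levels of 1726 and 3367 TPM, against 3598 TPM in HMGA2-OE. Stem and progenitor genes were higher for 12 of 15 (median 1.57), with sums of 804 and 881 TPM, against 370 TPM. Meis1, Gata2 and Slamf1 are among the genes of this list that stand also in a platelet or regulator list. Neutrophil genes were lower for 14 of 16, with sums of 26789 and 23353 TPM, against 70371 TPM. Of 16 endothelial and stromal genes, 7 were tested and all 7 were higher, with sums of 192 and 259 TPM, against 83 TPM. Among these 7, Kdr was at 6.20 and 36.4 TPM in RUNX1mut/HMGA2-OE, against 0.0502 TPM in HMGA2-OE. Tie1 was at 29.9 and 55.3 TPM, against 5.38 TPM. Of the genes not tested, the endothelial marker Cdh5 was at most 0.141 TPM and Cldn5 was listed at 0 in all 3 HSC/P libraries. The part of these cells in the differences of the platelet genes was not tested.

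**Figure D3:**
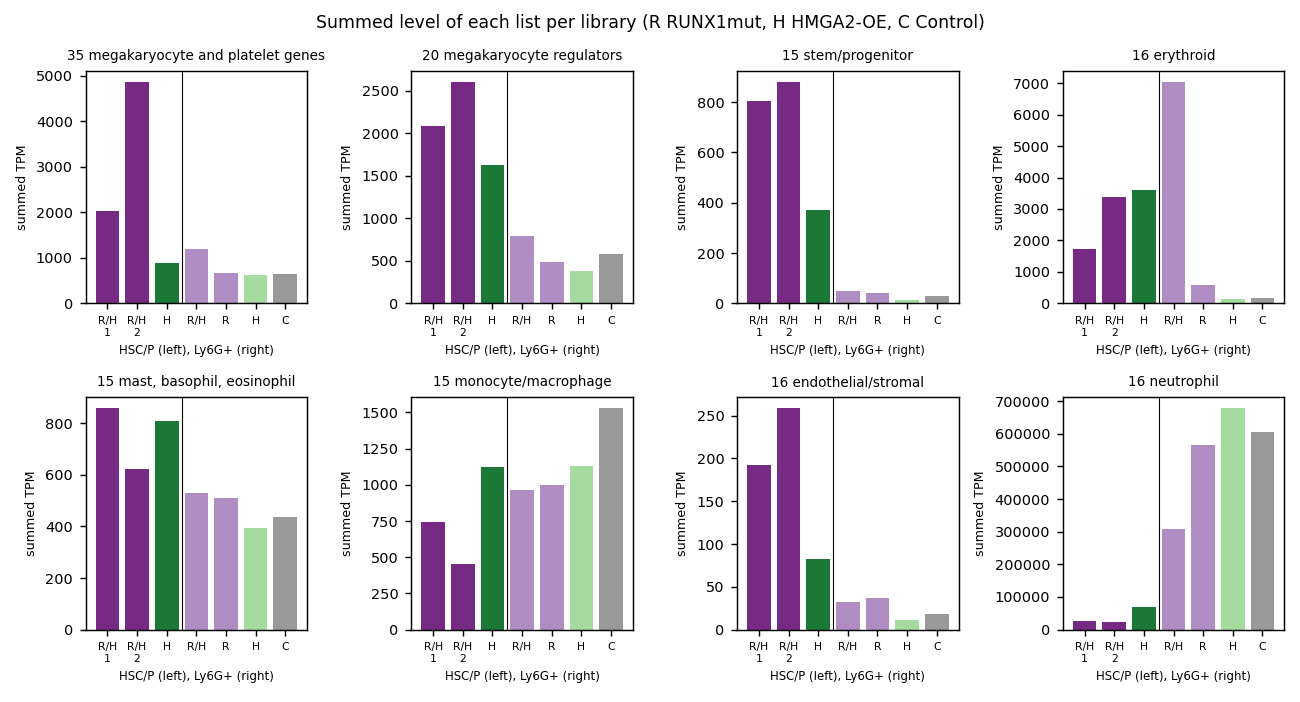
Summed TPM of the 35 genes and of 7 other gene lists (panels) in each library, with HSC/P left and Ly6G+ right of the line, R for RUNX1mut, H for HMGA2-OE, C for Control and the replicate number under the HSC/P pair. The platelet genes sum to 2029 and 4865 TPM in RUNX1mut/HMGA2-OE HSC/P, against 884 TPM in HMGA2-OE HSC/P, and erythroid genes reach 7047 TPM in RUNX1mut/HMGA2-OE Ly6G+ cells. All sums are of TPM as deposited, without scaling.

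The 2 RUNX1mut/HMGA2-OE HSC/P libraries were next set against each other on TPM as deposited, replicate 2 over replicate 1. There is 1 library on each side, so this is a description with no test. That these replicates differ on the members was known beforehand, so the shares of all genes beside the counts are no independent evidence of a gap. Of 33 members, 19 were at least 2-fold higher in replicate 2, against 2.55% of all genes, and none was at least 2-fold lower, against 2.24% of all genes. In 28 members replicate 2 was above replicate 1, against 57.2% of all genes. The median log2 ratio was 1.05 over the members and 0.05 over all genes.

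Genes of the same role were spread over the range of the gap. The plain ratio of TPM was largest for Ppbp at 6.87, Clec1b at 5.19, Gp9 at 4.20, Ltbp1 at 3.96 and Serpine2 at 3.43. Nrgn, Gp5, Plek, Treml1, Pf4 and Cd9 had ratios of 3.31, 3.10, 2.97, 2.94, 2.90 and 2.67. Itga2b had 2.05, Gng11 1.43 and Vwf 1.09. Nbeal2 (0.924), F10 (0.880), Thbs1 (0.852), F5 (0.829) and Tubb1 (0.761) were lower in replicate 2. The last 5 genes therefore did not share the higher level of replicate 2.

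No other of the 10 gene lists had a median as far from 0 between the replicates, but the gap of the members was known beforehand. The median log2 ratio was 0.44 for erythroid genes, 0.41 for the other platelet pathway genes, 0.23 for regulators and 0.19 for stem and progenitor genes. It was 0.01 for neutrophil, -0.34 for B lymphoid, -0.58 for monocyte and -0.65 for mast cell, basophil and eosinophil genes. Kit differed little, with 134 TPM in replicate 2 and 155 TPM in replicate 1.

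**Figure D4:**
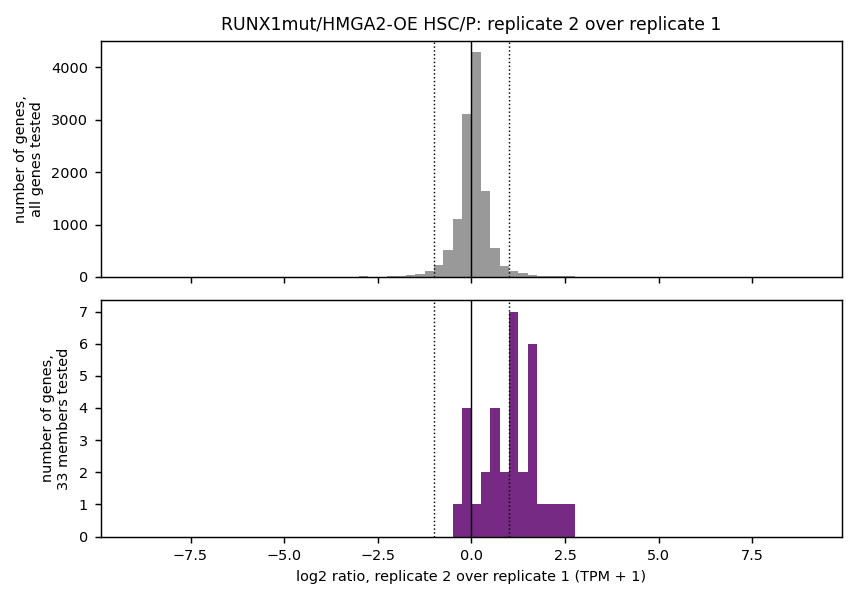
Histograms of the log2 ratio of replicate 2 over replicate 1 of RUNX1mut/HMGA2-OE HSC/P (TPM with 1 added, x axis), as the number of genes (y axis) among the 12226 genes tested (upper panel) and the 33 members (lower panel), with dotted lines at 2-fold. The genes as a whole centre on 0.05 and the members on 1.05.

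The next comparison asked how the RUNX1 mutation changed these genes in Ly6G+ cells, where each genotype had 1 library and an additive fit pooled 2 libraries with the mutation and 2 without it. Pf4 and Itga2b were higher in both RUNX1mut libraries, and so, at lower levels, were Ppbp, Gp9, F2r, Gp5 and Treml1, while Itgb3 and Serpine2 were lower. No gene passed the test (limma, smallest adjusted p 0.331, 0.0% of 9820 genes called). At an unadjusted p under 0.05 stood 14 of the 24 members tested and 14.3% of all genes. The other 11 members, Gp1ba, Gp1bb, Gp6, Nrgn, Alox12, Rab27b, Cavin2, Mmrn1, Angpt1, Tubb1 and Myl9, did not reach 1 TPM in 2 libraries.

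Of the 24 members, 15 were higher and 9 lower in the fit, where 50.8% of all genes were higher, and the median log2 difference was 0.23, against 0.01 for all genes. The direction of this median did not hold: it was -0.11 with a filter of 5 TPM (13 members), -0.24 without RUNX1mut/HMGA2-OE and -0.12 without RUNX1mut (15 members each), and 0.73 without scaling. The first 3 settings changed which members passed the filter, and Ppbp, Gp5, F2r and Treml1 dropped out in each. Members that stayed kept their direction where named: Pf4 was at 2.80, 2.91 and 2.58 and Itgb3 at -1.15, -1.31 and -1.01. Beyond 1, 7 members were higher, against 3.87% of all genes, and 2 were lower, against 3.32% of all genes. The same 7 were at least 2-fold higher in both pairs of libraries, RUNX1mut/HMGA2-OE over HMGA2-OE and RUNX1mut over Control, against 1.49% of all genes. The same 2 were at least 2-fold lower in both pairs, against 1.21% of all genes. In the first pair taken alone 7 members were at least 2-fold higher and 3 lower, against 4.93% and 4.99% of all genes, and in the second pair 8 were higher and 2 lower, against 5.36% and 3.56%. Both libraries with the mutation lay above both others for 11 members, against 26.1% of all genes, and below both for 7, against 24.5%. On TPM as deposited they lay above both others for 21 of all 35 members, against 60.1% of the genes tested, so the shares were alike there. The filter keeps members that are high in only 1 arm, so these counts describe the 24 members and not all 35.

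Scaling mattered in these libraries. S100a8, a neutrophil gene, was at 30622 TPM in RUNX1mut/HMGA2-OE and between 398580 and 546267 TPM in the other 3 libraries, and the scale factors were 1.58, 1.02 and 0.690 in RUNX1mut/HMGA2-OE, RUNX1mut and HMGA2-OE and 0.901 in Control. Without scaling the median log2 difference of all genes was 0.58 and 133 genes passed, 101 higher and 32 lower. Treml1, Ppbp, Pf4, Itga2b, Gp5 and F2r were then among the higher ones. The TPM below are as deposited and the log2 differences are scaled.

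Pf4 was at 35.2 and 18.6 TPM in RUNX1mut/HMGA2-OE and RUNX1mut, against 2.02 and 1.32 TPM in HMGA2-OE and Control (log2 difference 2.77 ± 0.17). The 2 libraries with the mutation did not overlap with the 2 without it. Ppbp was at 6.03 and 2.32 TPM in RUNX1mut/HMGA2-OE and RUNX1mut, against 0.4 TPM in HMGA2-OE and a value listed at 0 in Control (1.66 ± 0.16). Both chemokines thus showed the same order of the 4 libraries. Both were below their levels in every library of RUNX1mut/HMGA2-OE HSC/P.

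Among the adhesion receptors, Itga2b was at 8.77 and 16.2 TPM in RUNX1mut/HMGA2-OE and RUNX1mut, against 0.529 and 0.325 TPM in HMGA2-OE and Control (log2 difference 2.76 ± 0.55). Its fibrinogen receptor partner went the other way. Itgb3 was at 5.41 and 5.26 TPM in RUNX1mut/HMGA2-OE and RUNX1mut, against 5.52 and 13.3 TPM in HMGA2-OE and Control (-1.19 ± 0.16). As deposited, 3 of these 4 Itgb3 values lay between 5.26 and 5.52 TPM with Control above them, and after scaling the values were 3.43 and 5.16 TPM, against 8.0 and 14.8 TPM.

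Gp9 was at 8.66 and 5.63 TPM in RUNX1mut/HMGA2-OE and RUNX1mut, against 0.908 and 1.38 TPM in HMGA2-OE and Control (log2 difference 1.43 ± 0.14). Gp5 was at 2.39 and 1.72 TPM, against 0.139 TPM in HMGA2-OE and a value listed at 0 in Control (1.25 ± 0.20). F2r was at 3.12 and 2.32 TPM, against 0.184 and 0.112 TPM (1.39 ± 0.19). Treml1 was at 2.58 and 1.45 TPM, against 0.129 TPM in HMGA2-OE and a value listed at 0 in Control (1.21 ± 0.17). For each of these 4 genes both RUNX1mut libraries lay above both others, at levels of a few TPM.

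As deposited, most members at lower levels had both RUNX1mut libraries above both others as well, an order that 60.1% of the genes tested also had. For members below the filter only TPM as deposited are given. Clec1b was at 3.28 and 2.08 TPM in RUNX1mut/HMGA2-OE and RUNX1mut, against 0.745 and 0.692 TPM in HMGA2-OE and Control. Vwf was at 2.61 and 1.65 TPM, against 0.397 and 0.736 TPM. Gng11, the gene with the largest difference in HSC/P, was at 1.28 and 2.15 TPM, against 0.0559 and 0.352 TPM. F2rl2 was at 1.72 and 1.02 TPM, against 0.333 and 0.795 TPM. Among members below the filter, Gp1ba was at 1.07 and 0.494 TPM, against 0.217 and 0.154 TPM, and Alox12 at 1.93 and 0.699 TPM, against 0.282 and 0.253 TPM. Rab27b was at 1.08 and 0.479 TPM, against 0.240 and 0.270 TPM, and Angpt1 at 0.760 and 1.05 TPM, against 0.0798 and 0.0464 TPM. Tubb1 was at 3.26 and 0.286 TPM, against 0.109 and 0.0347 TPM, so its level stood out in the RUNX1mut/HMGA2-OE library alone. Gp1bb was between 0.812 and 1.04 TPM in all 4 libraries. Gp6, Nrgn, Cavin2 and Mmrn1 were below 1 TPM in all 4 libraries. Myl9 was at 0.563 TPM in RUNX1mut/HMGA2-OE and 2.88 TPM in HMGA2-OE and listed at 0 in RUNX1mut and Control.

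Members that Ly6G+ cells held at higher levels were less uniform. Cd9 was at 501 and 325 TPM in RUNX1mut/HMGA2-OE and RUNX1mut, against 342 and 380 TPM in HMGA2-OE and Control, and Plek at 156 and 89.5 TPM, against 75.5 and 88.4 TPM. Nbeal2 was at 49.7 and 32.4 TPM, against 35 and 42.5 TPM, and F5, a factor carried in plasma and platelets, at 23.1 and 16.3 TPM, against 11.9 and 16.7 TPM. Fli1 was at 30.2 and 20.8 TPM, against 17.0 and 22.3 TPM. As deposited, the libraries with and without the mutation overlapped for Cd9, Nbeal2, F5 and Fli1, and for Plek the RUNX1mut library lay just above Control. After scaling the fitted differences of these 5 genes lay between -0.61 and -0.15, and all 5 were above 0 without scaling, as was P2rx1. P2rx1 was at 18.8 and 4.82 TPM, against 9.05 and 6.41 TPM, and Itga6 at 15 and 4.26 TPM, against 5.43 and 3.45 TPM. Both were highest in RUNX1mut/HMGA2-OE, while RUNX1mut was the lowest library for P2rx1 and lay between HMGA2-OE and Control for Itga6. Serpine2 was at 3.80 and 1.55 TPM, against 5.17 and 4.15 TPM (log2 difference -1.24 ± 0.14), and F10 at 3.02 and 2.0 TPM, against 3.51 and 2.39 TPM. Selp was at 5.88 and 5.62 TPM, against 2.5 and 4.06 TPM, with both RUNX1mut libraries above both others as deposited, and Ltbp1 at 11.1 and 3.51 TPM, against 3.28 and 4.17 TPM.

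**Figure D5:**
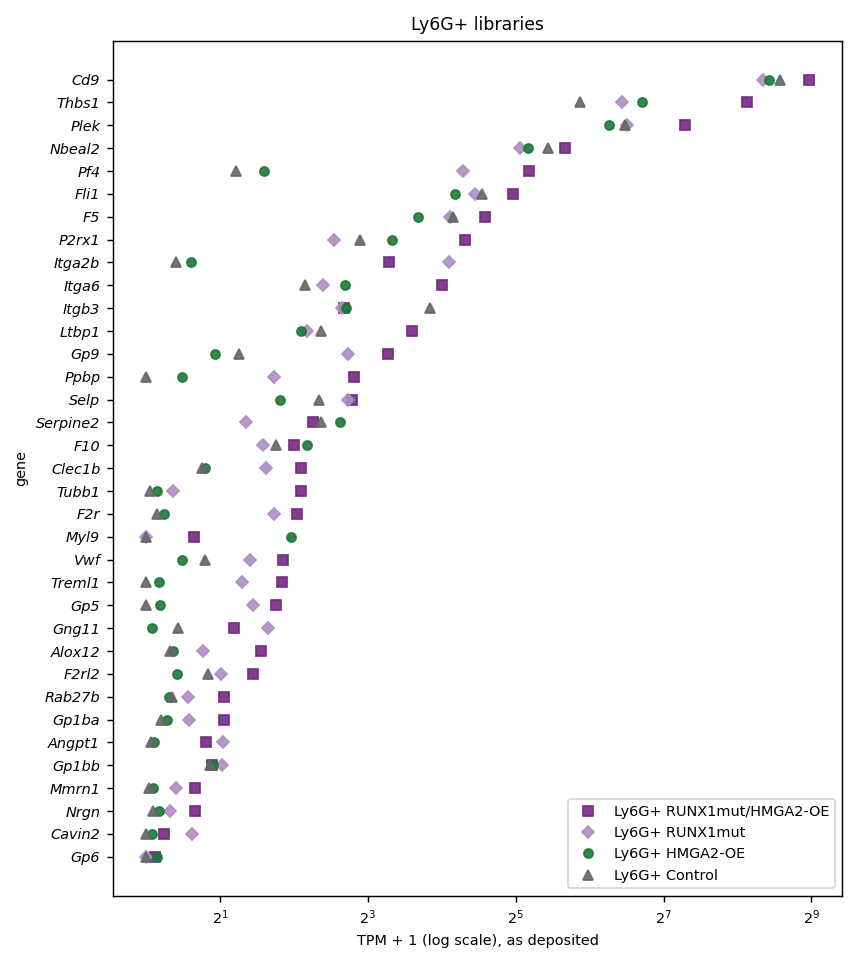
TPM with 1 added, as deposited, of the 35 genes (y axis, ordered by their highest value) in the 4 Ly6G+ libraries on a log2 x axis. For Pf4, Itga2b, Ppbp and Gp9 the squares (RUNX1mut/HMGA2-OE) and diamonds (RUNX1mut) stand apart from the circles (HMGA2-OE) and triangles (Control), while for Cd9 and Nbeal2 near the top they overlap.

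The other platelet pathway genes were higher for 9 and lower for 12 of 21 tested, with a median log2 difference of -0.04. Among them Rgs10, a regulator of G protein signalling, was at 4.42 and 9.09 TPM in RUNX1mut/HMGA2-OE and RUNX1mut, against 0.615 and 1.59 TPM in HMGA2-OE and Control (1.43 ± 0.29). Vcl, which encodes vinculin, was at 34.4 and 24.2 TPM, against 32.8 and 45.8 TPM (-1.08 ± 0.10). Of the regulators, 11 of 17 tested were higher, with a median of 0.19. The 4 with the largest differences were all higher, namely Gata1 (1.38 ± 0.20), Gfi1b (1.28 ± 0.22), Runx1 (1.26 ± 0.12) and Gata2 (1.20 ± 0.22). Gata1 was at 7.04 and 2.55 TPM in RUNX1mut/HMGA2-OE and RUNX1mut, against 0.553 and 0.517 TPM in HMGA2-OE and Control.

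Markers of other cells differed between the same Ly6G+ libraries. The sums below are of TPM as deposited, while the medians are of scaled values. Erythroid genes summed to 7047 and 578 TPM in RUNX1mut/HMGA2-OE and RUNX1mut, against 135 and 166 TPM in HMGA2-OE and Control, and 12 of 13 tested were higher (median log2 difference 1.69). The globin gene Hbb-bs alone made 4934 and 116 TPM of the sums in RUNX1mut/HMGA2-OE and RUNX1mut. Stem and progenitor genes summed to 50.3 and 39.8 TPM, against 14.6 and 30.8 TPM (8 of 9 higher, median 0.93). Mast cell, basophil and eosinophil genes summed to 529 and 510 TPM, against 393 and 438 TPM (7 of 10 higher, median 1.05, 5 higher and 2 lower beyond 1). Hdc alone made 373 and 282 TPM of these sums in RUNX1mut/HMGA2-OE and RUNX1mut, against 294 and 324 TPM in HMGA2-OE and Control. B lymphoid genes were higher for 9 of 9 and monocyte genes for 12 of 14, with medians of 0.80 and 0.79. The part of such cells in the levels of the platelet genes was not tested.

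HMGA2 overexpression was the other term of the same Ly6G+ fit. Of the members only Thbs1 was beyond 1, higher with HMGA2-OE, against 2.22% of all genes, and none was lower beyond 1, against 2.88% of all genes. Thbs1, a secreted adhesive glycoprotein, was at 279 and 104 TPM in RUNX1mut/HMGA2-OE and HMGA2-OE, against 85.6 and 57.6 TPM in RUNX1mut and Control (log2 difference 1.14 ± 0.11). Both libraries with HMGA2-OE were above both without it. No gene passed (limma, smallest adjusted p 0.256, 0.0% of 9820 genes called). At an unadjusted p under 0.05 stood 6 of 24 members and 6.51% of all genes, and the median was 0.10 over the members and 0.01 over all genes. Without scaling 61 genes passed, none of them a member.

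Set pair by pair, HMGA2-OE over Control had 1 member at least 2-fold higher, which was Thbs1, against 3.27% of all genes, and none at least 2-fold lower, against 3.19%. RUNX1mut/HMGA2-OE over RUNX1mut had 3, namely Itga6, P2rx1 and Thbs1, against 3.97% of all genes, and 1 at least 2-fold lower, Itga2b, against 4.39% of all genes. These counts are small shares of 24 members. From the 2 further lists, Dnm3, a dynamin, was at 52.7 and 6.92 TPM in RUNX1mut/HMGA2-OE and HMGA2-OE, against 6.15 and 9.28 TPM in RUNX1mut and Control (1.13 ± 0.72). Etv6, an ETS repressor, was at 18.4 and 7.79 TPM, against 20.3 and 51.0 TPM (-1.48 ± 0.47).

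HSC/P were compared with Ly6G+ cells in the 5 libraries with HMGA2-OE, with the RUNX1 mutation as a term. Receptor and granule genes of platelets were higher in HSC/P and Cd9, Thbs1, F5 and Nbeal2 were lower. Most genes differ between these cell types, since 64.7% of 12686 genes passed, 32.2% as higher and 32.5% as lower (limma). Of 33 members tested, 15 rose and 4 fell, and the median log2 difference was 1.38, against 0.10 for all genes. The share of members that rose was thus above the background and the share that fell below it. The split follows the scaling, because without it 8170 genes passed as higher and 1126 as lower, with 26 and 3 members. With upper-quartile scaling 5424 and 3104 genes passed, with 16 and 4 members. The median of all genes was 1.46 without scaling and 0.50 with upper-quartile scaling.

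Angpt1 rose the most, by 4.6 ± 0.22 on the log2 scale (adjusted p = 6.3e-04), and was at 90.0, 120 and 40.1 TPM in the HSC/P libraries, against 0.760 and 0.0798 TPM in RUNX1mut/HMGA2-OE and HMGA2-OE Ly6G+ cells. Nrgn rose by 4.54 ± 0.76 and was below 1 TPM in both of these Ly6G+ libraries. F2r rose by 3.50 ± 0.35 and Vwf, the ligand of the GPIb complex, by 2.39 ± 0.24. These 4 genes were above every Ly6G+ library in each HSC/P library, HMGA2-OE included. Pf4 rose by 3.53 ± 0.71, Itga2b by 3.40 ± 0.54, Treml1 by 3.29 ± 0.77 and Cavin2 by 2.90 ± 0.73. Gng11 rose by 2.84 ± 0.73, Rab27b by 2.78 ± 0.59, Gp5 by 2.60 ± 0.51 and Gp1ba by 1.54 ± 0.46. Mmrn1 rose by 1.49 ± 0.26, Itga6 by 1.21 ± 0.36 and F10 by 0.91 ± 0.26.

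Thbs1 fell by 5.24 on the log2 scale (SE 0.14, adjusted p = 6.2e-04), with 20.2, 17.2 and 13.3 TPM in HSC/P, against 279 and 104 TPM in Ly6G+ cells. Cd9 fell by 3.72 (SE 0.54), F5 by 3.38 (SE 0.16) and Nbeal2 by 1.92 (SE 0.32). Nbeal2 did not hold this without scaling, where its difference was -0.08 (adjusted p = 0.885). The 14 members that did not pass included Gp9 at 1.75 ± 0.65, Clec1b at 1.73 ± 1.01, Ppbp at 1.38 ± 0.86, Plek at -2.02 ± 1.0 and Itgb3 at -0.28 ± 0.97. For these named members the HSC/P values were spread widely between the libraries, which include both genotypes.

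Some of these calls rested on 1 library. Without HMGA2-OE HSC/P, Pf4 was at 2.53 (adjusted p = 0.063), Gp5 at 2.52 (0.068) and Gp1ba at 1.88 (0.062). Without RUNX1mut/HMGA2-OE Ly6G+, Treml1, Rab27b, Cavin2, Gp5, Gp1ba and Itga6 did not pass, with adjusted p between 0.069 and 0.307. Without HSC/P replicate 1, Gng11, Cavin2, Gp1ba and Itga6 did not pass, and without HSC/P replicate 2 Gng11 did not. Angpt1, F2r, Vwf, Itga2b, Nrgn and Mmrn1, and the 4 members that fell, passed with each of the 5 libraries left out.

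Of the other platelet pathway genes 9 rose and 13 fell among 36 tested. Rgs10 rose by 3.53 ± 0.43 and Pear1 by 3.15 ± 0.32, whereas Fcer1g, the signalling chain of the collagen receptor and of Fc receptors, fell by 5.31 (SE 0.22) and Dnm3 by 4.63 (SE 0.35). Of 20 regulators 13 rose and 3 fell. Zfpm1, the cofactor FOG1 of GATA1, rose by 5.67 ± 0.29, Tal1 by 4.40 ± 0.21, Gata2 by 3.48 ± 0.21 and Gfi1b by 3.34 ± 0.57.

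The difference of the RUNX1mut effect between the cell types was tested in the same 5 libraries, which this test shares with the comparisons above. No gene passed (limma, smallest adjusted p 0.122, 0.0% of 12686 genes called), so no member's effect was shown to differ. At an unadjusted p under 0.05 stood 8 of 33 members and 18.1% of all genes. The effect was larger in HSC/P for 28 of 33 members, against 50.2% of all genes, with a median log2 difference of 1.25, against 0.00 for all genes. Without scaling it was larger for 26 of 33, with a median of 0.59, against -0.77 for all genes. It was larger by more than 1 for 21 members, against 9.45% of all genes, and smaller by more than 1 for 2, against 8.74% of all genes.

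Itgb3 had the largest value, at 3.95 ± 0.53 (adjusted p = 0.164). Gng11 was at 2.91 ± 0.43. The 2 members with a smaller effect in HSC/P were Pf4 at -2.16 ± 1.17 and Tubb1 at -1.47 ± 0.36. Pf4 thus combined a mixed direction in the 2 HSC/P replicates with a higher level in both RUNX1mut Ly6G+ libraries.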

How the data were processed

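The labels describe 7 bone marrow libraries of individual mice. Per the submitters' processing notes, the authors used bcl2fastq, CASAVA 1.8 and kallisto with the build mm10. The sources used here give neither the version of kallisto nor the transcript annotation. The deposited table was read as TPM computed by the authors: its header names no unit, its values are not whole numbers and its columns have nearly equal sums. GENCODE M21 gave symbols for 27458 of 28987 genes, and promoter windows came from RefSeq.

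Log2 of scaled TPM with 1 TPM added was fitted with limma 3.58.1 in R 4.3.3 with a variance trend, for genes at 1 TPM or more in 2 or more libraries of a fit. Scale factors between libraries were trimmed means of M values without weights, with trims of 0.3 on log ratios and 0.05 on mean level. Tests were two-sided over all genes of a fit, with Benjamini-Hochberg adjustment at 0.05. They were also run on simulated data with independent errors and effects that followed the fitted model. The real libraries need not meet these conditions, so that run is no check of the p-values given here. With 1 library in most groups and 1 or 2 residual degrees of freedom, p-values and standard errors rest only on differences among these libraries. In the Ly6G+ fits, where each genotype had 1 library, the residual is the departure from additive effects of RUNX1mut and HMGA2-OE, not replicate spread. In the HSC/P fit the residual is the gap between replicates 1 and 2, and HMGA2-OE, with 1 library, adds no spread. In the comparison of cell types the residual is the replicate gap and the departure from additive effects of cell type and RUNX1mut. Only the replicate gap enters the test of the RUNX1mut effect between cell types. Fitted changes are given for members beyond 1 on the log2 scale, and from each further list for up to 4 genes with the largest change, of which some are not reported here. Values after ± are standard errors of the fit. The members and lists were chosen with earlier results of these data known. Other settings tried were 0.1 or 5 TPM added, no filter or one of 5 TPM, no or upper-quartile scaling, no variance trend, a fit to all 7 libraries and leaving out each library. Python 3.11.15 and matplotlib 3.10.9 drew the figures.

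Kallisto may divide reads between overlapping genes. Of the members 9 have exons that overlap another gene, and 4 have an annotated transcript of 350 to 420 nt. The overlap is on the same strand for Gp1bb, Clec1b and Nbeal2, for Nbeal2 with Mir8107.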

Additional observations from a re-analysis of the deposited data

Results flagged for a closer look

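In 6 members both HSC/P libraries of RUNX1mut/HMGA2-OE were above HMGA2-OE while both Ly6G+ libraries with the RUNX1 mutation were below their partners, after scaling. These members were picked by the directions of these same values, so the positive sign of the differences below follows from the choice. The share of all genes with this pattern was not counted. The values are the RUNX1mut effect in HSC/P minus that in Ly6G+ cells on the log2 scale, in the 5 libraries with HMGA2-OE, with limma's adjusted p, and none passed. Itgb3, the beta chain of the fibrinogen receptor, was at 3.95 ± 0.53 (SE, adjusted p = 0.164). Plek, the protein kinase C substrate, was at 3.61 ± 1.20 (0.291) and Serpine2, the thrombin inhibitor, at 3.25 ± 1.29 (0.335). P2rx1, the ATP-gated channel, was at 2.23 ± 0.67 (0.267), Nbeal2 at 1.25 ± 0.20 (0.176) and Fli1 at 1.18 ± 0.36 (0.272). For P2rx1, Plek, Nbeal2 and Fli1 the RUNX1mut difference in Ly6G+ cells was above 0 without scaling, so the opposite directions depend on it. Itgb3 and Serpine2 stayed below 0 there without scaling.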

How the results depend on the processing

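No paired analysis was made, because the sources used here do not say whether any mouse gave both an HSC/P and a Ly6G+ library. Depth is unknown, so the counting error behind low TPM cannot be given, and genes under 1 TPM carry little information.

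The HSC/P member median lay between 1.03 (without replicate 2) and 2.57 (without replicate 1), and of 196 other values of single members 36 moved beyond their error without a change of sign. The Ly6G+ member median for RUNX1mut changed sign to -0.11 with a filter of 5 TPM (13 members), to -0.24 without RUNX1mut/HMGA2-OE and to -0.12 without RUNX1mut (15 members each, since fewer passed the filter), and leaving out 1 library gave at most 0.36. It was 0.73 without scaling and 0.80 in a fit to all 7 libraries, where Itgb3 was at 0.24 and the cause was not tested. Counts of genes passing without scaling were 1 in HSC/P, 133 for RUNX1mut and 61 for HMGA2-OE in Ly6G+ cells, and 58 for HMGA2-OE in the fit to all 7 libraries. The cell type median of members was 2.65 without scaling and between 0.56 (without RUNX1mut/HMGA2-OE Ly6G+) and 1.71 with a library left out. Of 288 other values of single members in that comparison, 23 lost the call and 11 gained it. The test of the difference between cell types gave 3250 genes with no filter and 1 with a filter of 5 TPM. Leaving out Pf4 and Ppbp put the summed level at 522 TPM in HMGA2-OE HSC/P.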
